A study of Mus musculus with 12 samples.

Results

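Expression of the MHC class I loading genes and their regulators was examined in 10 genes, B2m, H2-K1, H2-D1, H2-T23, Tap1, Tap2, Tapbp, Erap1, Nlrc5 and Ciita. They were taken by gene symbol from a table of 41128 genes, and all 10 were among the 12520 genes whose adjusted TPM was 1 or more in 3 or more libraries. Adjusted TPM is a length-corrected share of transcripts that the authors rescaled between libraries, so that levels of different genes could be set side by side. RNA had been sequenced from lymphocytes purified from the spleens of C57BL/6J mice 6 to 8 weeks old. The 12 libraries formed 4 groups of 3, namely resting CD43- B cells of females, resting CD43- B cells of males, naive CD4+CD62L+ T cells of females and naive CD4+CD62L+ T cells of males. No allele, transgene or treatment distinguished the groups, and each library came from pooled animals, so that the spread between libraries was a spread between pools. Per the labels, the T cells were depleted of cells bearing CD8a, CD45R, CD11b and other lineage markers and then sorted by flow cytometry. Libraries are named here by sex, cell type and the number in their label, which ran from 1 to 3 for B cells and from 4 to 6 for T cells in both sexes.

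MHC class I molecules display peptides from the inside of a cell to CD8+ T cells. Peptides cut by the proteasome are pumped into the endoplasmic reticulum by the transporter TAP, trimmed there by aminopeptidases, and loaded with the help of tapasin onto a heavy chain bound to its light chain. NLRC5 is the transactivator of class I genes and its relative CIITA that of class II genes; neither binds DNA itself, and both are recruited by RFX, CREB/ATF and NF-Y factors bound side by side at conserved promoter boxes.

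Promoter sequences are given first because the light chain gene and both classical heavy chain genes carried boxes of this kind in the same arrangement. RefSeq promoters (GRCm38.p6) were matched by symbol for 7 of the 10 genes, and the 250 bases before each start site were searched on both strands for CCAAT (read by NF-Y), TGACG (read by CREB/ATF factors), GAAANNGAA (part of an interferon-response element) and GGGATTCCC (a kappaB site). Sequences run 5′ to 3′ on the gene's strand, capitals mark the matches, and ATTGG is CCAAT on the opposite strand. The B2m stretch is chr2:122147437-122147685 on the plus strand, and the H2-K1 stretch is chr17:34000348-34000597 on the minus strand.
B2m: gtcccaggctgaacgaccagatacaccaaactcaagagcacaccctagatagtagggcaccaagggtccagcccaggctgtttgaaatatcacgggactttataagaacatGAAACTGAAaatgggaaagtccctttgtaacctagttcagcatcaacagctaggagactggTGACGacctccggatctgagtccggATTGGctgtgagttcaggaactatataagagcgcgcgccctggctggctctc
H2-K1: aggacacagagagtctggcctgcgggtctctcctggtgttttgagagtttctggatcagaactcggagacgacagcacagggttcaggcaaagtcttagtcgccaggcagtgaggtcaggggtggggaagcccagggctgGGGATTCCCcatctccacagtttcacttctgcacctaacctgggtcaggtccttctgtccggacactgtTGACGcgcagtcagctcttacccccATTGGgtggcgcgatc

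In each of B2m, H2-K1 and H2-D1, a forward TGACG was followed by ATTGG with 25 bases from the first base of one to the first base of the other. TGACG began 78 bases before the start of B2m, 41 bases before the upstream of the RefSeq starts of H2-K1 and 101 bases before that of H2-D1. These stretches of 30 bases are shown side by side with the corresponding 30 bases of Tap1, which held TGACG 86 bases before its start without ATTGG at that distance. The last of them, from H2-T23, held CCAAT on the forward strand and no TGACG. The stretches lie at chr2:122147609-122147638 (B2m, plus strand), chr17:34000359-34000388 (H2-K1, minus strand), chr17:35262993-35263022 (H2-D1, plus strand), chr17:34187470-34187499 (Tap1, plus strand) and chr17:36032749-36032778 (H2-T23, minus strand).
B2m: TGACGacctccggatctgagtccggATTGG
H2-K1: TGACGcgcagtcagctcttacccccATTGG
H2-D1: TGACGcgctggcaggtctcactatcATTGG
Tap1: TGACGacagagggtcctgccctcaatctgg
H2-T23: tgttggacgcctagttttctaaaagCCAAT

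Outside the boxes the light chain and heavy chain stretches were not alike. H2-K1 and H2-D1 were identical at 23 of the 30 bases and H2-K1 and B2m at 13, of which the boxes themselves supply 10. H2-K1 and H2-D1 also shared GGGATTCCC, which began 69 bases before TGACG in both, and from that site to the end of ATTGG they were identical at 88 of 99 bases (88.9%). The pair with this spacing occurred in 18 of 32851 promoter windows (0.0548%), which belonged to 15 genes, among them the nonclassical class I gene H2-M3. The spacing was noticed in these genes before it was counted elsewhere, so the share is a description. Single matches were far more common, with CCAAT in 33.8%, TGACG in 17.8%, GAAANNGAA in 7.13% and GGGATTCCC in 0.301% of all windows. CCAAT was found in 6 of the 7 genes searched, TGACG in 4 (B2m, H2-K1, H2-D1 and Tap1), GAAANNGAA in 3 (B2m, H2-T23 and Erap1) and GGGATTCCC in 2. The matches overlapped nowhere in these windows. In the GENCODE M21 annotation, much of several windows lay in annotated untranslated bases, namely all 250 bases for H2-D1 and Erap1, 246 for Tap1, 244 for Tapbp and 154 for H2-T23, against 1 for B2m and 0 for the H2-K1 window shown. In the Tap1 window these bases belong to Psmb9, on the opposite strand, and to Tap1. The annotated Tap1 start at 34187553 lies at the very end of that window (34187306-34187555), so both annotations place it alike. In the Tapbp window they belong to Tapbp and Zbtb22. The starts of H2-D1, Erap1, Tapbp and H2-T23 depend on the annotation, as do distances given from them.

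Sequencing depth is unknown, since the deposited values are not counts. Totals of adjusted TPM ran from 561020 to 1453940 per library, and 11122 to 11543 genes were at 1 or more. The noncoding RNAs Yam1 or Rn7sk led every library, and Yam1 took 32.16% of female B cell 1 and 37.36% of male T cell 6, whereas the leading RNA took 11.44% to 17.83% elsewhere. The sum of the B cell markers Cd79a, Cd79b, Ms4a1 and Pax5 lay between 2220 and 2640 where B cells had been sorted and between 0.896 and 4.91 in T cell libraries. The sum of Cd3d, Cd3e, Cd4, Lck and Tcf7 was 1020 to 1190 in T cell and 9.76 to 14.1 in B cell libraries. In B cell libraries most of it was Lck (mean 10.43), beside means of 0.534 for Tcf7, 0.22 for Cd3d, 0.045 for Cd3e and 0.0036 for Cd4. Myeloid and dendritic cell markers (8 of 9 listed genes were in the table) summed to 13.4 to 20.5 in B cell and 2.87 to 6.51 in T cell libraries, and were highest among T cell libraries in female T cell 6. For 9 of the 10 genes described here, the upper bound deposited with each value was at most 1.142 times the lower bound, and Ciita in T cells had the widest interval, 4.75 times.

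**Figure D1:**
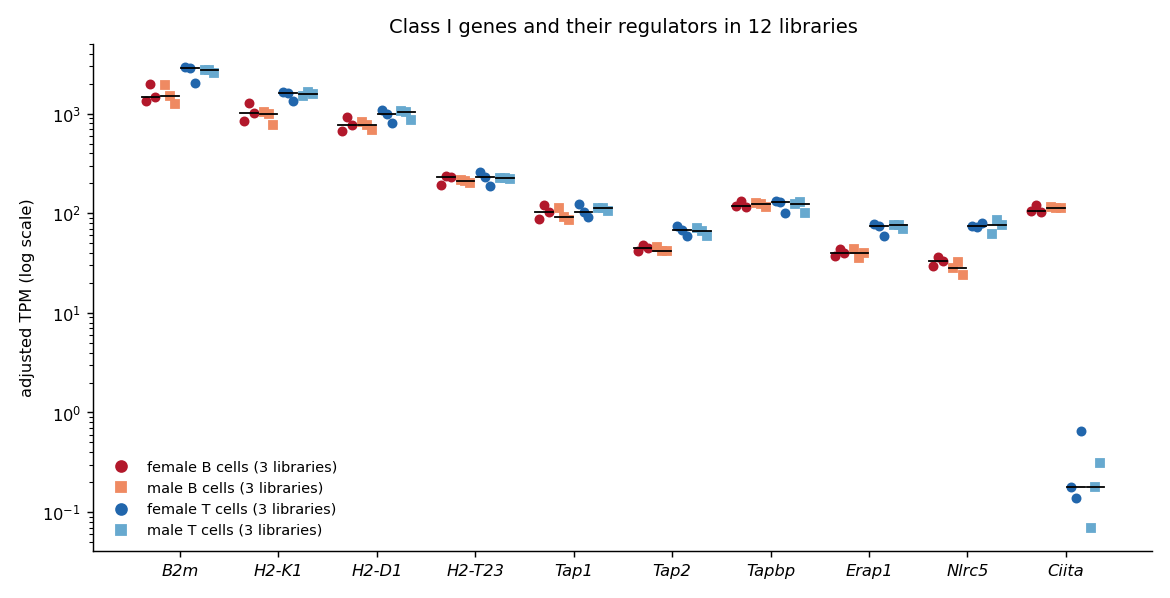
Adjusted TPM (log scale) of each gene in each of the 12 libraries, with 1 point per library and a black line at the median of the 3 libraries of a group. The loading genes kept a similar order in B cells (red and orange) and T cells (dark and light blue), Nlrc5 was higher in all 6 T cell libraries, and Ciita stood between 102 and 119.9 in B cells and reached at most 0.657 in T cells.

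The comparison of B with T cells showed where the class I genes differed between the lymphocyte types that both display class I. With both sexes averaged, 6 of the 10 genes were higher in T cells (B2m, H2-K1, H2-D1, Tap2, Erap1 and Nlrc5), 1 was higher in B cells (Ciita), and 3 did not pass the test (H2-T23, Tap1 and Tapbp). The background was wide, since 73.0% of the 12520 genes tested passed in limma at an adjusted p of 0.05, 31.4% with the higher level in B cells and 41.6% with the higher level in T cells. The total of 7 of 10 was therefore close to the background. By direction, 6 of 10 stood beside 41.6% and 1 of 10 beside 31.4%, and with 10 genes nothing more was read from these counts. Nlrc5 stood further out, at 2.431-fold on the log2(adjusted TPM + 1) scale, and only 6.73% of tested genes passed with a T cell excess at least as large. B and T cell libraries did not overlap for 6 of the 10 genes, 5 of them higher in T cells, beside 53.9% of all tested genes (29.7% with T above B and 24.2% with B above T). The median difference was -0.45 (log2, B minus T) over the 10 genes and -0.09 over all tested genes. In bulk RNA, a smaller share of cells expressing a gene and less RNA per cell cannot be told apart.

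Because the scaling between libraries was the authors' and its method is not stated in the sources used here, every difference was also computed under other scalings. The deposited total of female B cell 1 was 1000000, which is the total of TPM before any rescaling. If the authors applied 1 factor per library, equal totals give back TPM before rescaling. With equal totals, 3 of the 10 genes passed in limma (Erap1, Nlrc5 and Ciita). The median of all tested genes moved from -0.09 (log2, B minus T) to 0.01 under median-ratio scaling, to 0.17 with equal protein-coding totals and to 0.25 with equal totals. Calls higher in B cells made up 43.0% of all calls as deposited, 52.3% under median-ratio scaling, 65.8% with equal protein-coding totals and 70.8% with equal totals. These scalings differ only by a constant factor per library, which shifts each gene and that median nearly alike. Stable differences relative to that median are therefore no independent check. Quantile normalization can change them. It gave a median of -0.08 over all tested genes, with B2m at -0.09, H2-K1 at -0.0043 and H2-D1 at 0.15. Tap2 was at -0.51, Erap1 at -0.76 and Nlrc5 at -1.23. Differences relative to the median moved less under the 4 constant-factor scalings, as deposited included. They stayed between -0.58 and -0.54 for H2-K1, between -0.24 and -0.20 for H2-D1, between -0.74 and -0.70 for Erap1, between 0.12 and 0.16 for Tapbp and between 6.50 and 6.67 for Ciita, and those of H2-T23 and Tap1 were within 0.0523 of 0. With female B cell 1, female T cell 6 and male T cell 6 left out together, a choice made after seeing the data, 7 genes again passed, 1 of them higher in B cells. Female and male T cell libraries of the same number deviated together (correlations 0.521 to 0.721), so the tests over 12 libraries assume more independent T cell samples than there may be. With each such pair averaged, which left 6 B cell libraries against 3 T cell means and was also chosen after seeing the data, 6 genes passed in limma and H2-D1 did not (adjusted p = 0.059).

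B2m (chr2:122147686-122153083, plus strand, GRCm38), which encodes the light chain shared by all class I molecules, was the most abundant of the 10 genes in both cell types. Its adjusted TPM in B cells had a lowest value of 1263, a median of 1490.2 and a highest value of 2008. The T cell libraries had a lowest value of 2013, a median of 2723 and a highest value of 2942. Every T cell library thus stood above every B cell library, although the highest B cell library, female B cell 2, and the lowest T cell library, female T cell 6, nearly met. The difference was -0.74 ± 0.16 (log2, SE, 6 against 6 libraries, adjusted p = 0.00098), or 1.674-fold. Relative to the median of all genes it was -0.65 as deposited and between -0.62 and -0.64 under the 3 other constant-factor scalings. Under quantile normalization the relative difference nearly vanished, as B2m was at -0.09 and that median at -0.08. With equal totals the test no longer passed (-0.36, adjusted p = 0.27), nor with quantile normalization (-0.09, adjusted p = 0.53).

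The classical heavy chains H2-K1 and H2-D1 bind the peptides that CD8+ T cells read, and both were higher in T cells as deposited. H2-K1 (chr17:33996017-34000347, minus strand) ran from 765 through a median of 994.8 to 1291 in B cells and from 1349.8 through 1587 to 1639 in T cells, without overlap. The difference for H2-K1 was -0.66 ± 0.13 (log2, SE, adjusted p = 0.00046), or 1.585-fold. Like B2m, H2-K1 did not pass with equal totals (-0.28, adjusted p = 0.36) or quantile normalization (adjusted p = 0.97). H2-D1 (chr17:35262730-35267499, plus strand) was 672, 928 and 766 in female B cells 1 to 3, 827, 776 and 686 in male B cells 1 to 3, 1091, 994 and 803 in female T cells 4 to 6, and 1064, 1031 and 870.3 in male T cells 4 to 6. Its B and T cell libraries overlapped, since female B cell 2 and male B cell 1 were above female T cell 6. H2-D1 differed by -0.33 ± 0.11 (log2, SE, adjusted p = 0.02), or 1.257-fold, and this was the least firm of the 7 calls. It was lost without female B cell 1, without male B cell 3 or without female T cell 4 (adjusted p = 0.052 each) and under median-ratio scaling (adjusted p = 0.079) and equal protein-coding totals (adjusted p = 0.76), and the sign turned with equal totals (0.053) and quantile normalization (0.15).

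H2-T23 (chr17:36029773-36032855, minus strand) encodes Qa-1, a nonclassical class I molecule that presents leader peptides of other class I chains to NKG2A receptors. Its adjusted TPM ran from 191 through 213 to 237 in B cells and from 190.1 through 226 to 258 in T cells. The ranges overlapped almost fully, and the difference of -0.07 ± 0.08 (log2, SE, adjusted p = 0.43) had a 95% interval from -0.25 to 0.11. The classical and nonclassical heavy chain genes share sequence, with 9.63% of 50-base stretches of H2-K1, 12.8% of those of H2-D1 and 13.6% of those of H2-T23 also present in transcripts of other genes. How reads from such stretches were assigned is not stated in the sources used here, which makes these levels less certain than that of B2m, with 0 shared stretches.

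TAP is a dimer of the products of Tap1 and Tap2, and its genes differed in their balance. Tap1 (chr17:34187553-34197225, plus strand) ran from 85.8 through 97.3 to 121 in B cells and from 91.4 through 109 to 124 in T cells, an overlapping pair of ranges with a difference of -0.11 ± 0.10 (log2, SE, adjusted p = 0.31). Tap2 (chr17:34203527-34216321, plus strand) ran from 41.5 through 43.5 to 47.7 in B cells and from 58.8 through 66.7 to 74.8 in T cells. All 6 T cell libraries were above all B cell libraries for Tap2, by 1.49-fold (-0.58 ± 0.07 log2, SE, adjusted p = 8.2e-06). With equal totals the Tap2 difference shrank to -0.20 (limma, adjusted p = 0.4). Relative to the median of all genes it was -0.49 as deposited and between -0.46 and -0.48 under the 3 other constant-factor scalings. Quantile normalization gave -0.51 for Tap2, where that median was -0.08. Both genes lie in 28769 bases of the MHC region, where the start of Tap1 is 211 bases from that of Psmb9 on the opposite strand and their annotated spans overlap. The libraries were stranded per the labels, but whether strand was used for quantification is not stated in the sources used here.

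Tapbp and Erap1, which act on the peptide within the endoplasmic reticulum, behaved differently from each other. Tapbp (chr17:33915899-33929292, plus strand) encodes tapasin, which bridges TAP and the empty heavy chain, and ran from 116 through 121 to 134 in B cells and from 101 through 127 to 133 in T cells. Its difference was 0.04 ± 0.09 (log2, SE, adjusted p = 0.72), with a 95% interval from -0.15 to 0.22. Only with equal protein-coding totals, among the 22 alternatives run, did Tapbp pass (0.32 higher in B cells, adjusted p = 0.01). Erap1 (chr13:74639568-74693201, plus strand) encodes the aminopeptidase that trims peptides to the length class I can hold. It ran from 35.9 through 40.1 to 44.2 in B cells and from 59.8 through 74.8 to 77.6 in T cells, without overlap, for a 1.771-fold T cell excess (-0.82 ± 0.08 log2, SE, adjusted p = 5.2e-07). Erap1 passed in all 22 alternatives, and its smallest difference was -0.45 (adjusted p = 0.043) with equal totals.

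Nlrc5 (chr8:94434356-94527272, plus strand), the class I transactivator, had the largest T cell excess of the 10 genes. It was 29.3, 36.7 and 32.9 in female B cells 1 to 3 and 28.3, 32.2 and 23.8 in male B cells 1 to 3. In T cells it was 73.9, 73.7 and 80.6 in females 4 to 6 and 62.2, 84.7 and 76.8 in males 4 to 6. The lowest T cell library was 62.2 and the highest B cell library 36.7, so the groups were well apart in both sexes. The difference was -1.28 ± 0.09 (log2, SE, adjusted p = 4.1e-08). It passed in all 22 alternatives, was between -1.34 and -1.23 when each library was left out in turn, and was -0.91 (adjusted p = 1.3e-05) with equal totals. Relative to the median of all genes it was -1.19 as deposited and between -1.17 and -1.18 under the 3 other constant-factor scalings. Quantile normalization gave -1.23 for Nlrc5, where that median was -0.08. By rank of mean level among 41128 genes, Nlrc5 stood at 2621 in B cells and 921 in T cells, while B2m stood at 28 and 29.

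Ciita (chr16:10480059-10528418, plus strand) went the opposite way and was nearly confined to B cells. It was 106, 119.9 and 102 in female B cells 1 to 3 and 115, 114 and 113 in male B cells 1 to 3. In T cells it was 0.178, 0.137 and 0.657 in females 4 to 6 and 0.0694, 0.18 and 0.312 in males 4 to 6, levels at which a single value is imprecise. The difference was 6.50 ± 0.09 (log2, SE, adjusted p = 3.5e-15), and with a pseudocount of 0.1 in place of 1, which compresses low values less, it was 8.47. Class II pathway genes, for which CIITA is known as the transactivator, followed the same division. All 8 tested were higher in B cells as deposited and under each of the 4 other scalings, beside 31.0% to 45.4% of all tested genes. Their median was 7.24 (log2) as deposited and between 7.16 and 7.67 under the other scalings. The largest differences were those of H2-Aa (9.59), H2-Ab1 (9.25) and H2-Eb1 (9.25), which encode the peptide-binding chains.

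Traces of Ciita in T cell libraries moved with traces of other genes of B and myeloid cells. Ciita in female T cell 6 was 0.59% of the B cell mean, against 0.0622% to 0.28% in the other 5 T cell libraries. The same library was highest for H2-Aa (0.494% of the B cell mean, against 0.0068% to 0.235%), for Ms4a1 (0.173%, against 0.0117% to 0.0834%) and for the myeloid gene Lyz2 (28.3%, against 0.377% to 13.7%). Male T cell 6 was second for each of these genes. The other B cell markers were also highest in female T cell 6, at 0.322% for Cd79a, 0.205% for Cd79b and 0.00148% for Pax5. In that library every B cell marker had a lower share than Ciita, and Pax5 by far the lowest. For Cd79a, male T cell 6 (0.153%) was below female T cell 5 (0.204%) and male T cell 5 (0.191%). By contrast, H2-DMa (5.51% to 7.37%) and H2-Ob (4.13% to 6.67%), which encode chains of the class II peptide editors, had similar shares in all 6 T cell libraries. The part of residual B or myeloid cells in the T cell level of Ciita was not tested.

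**Figure D2:**
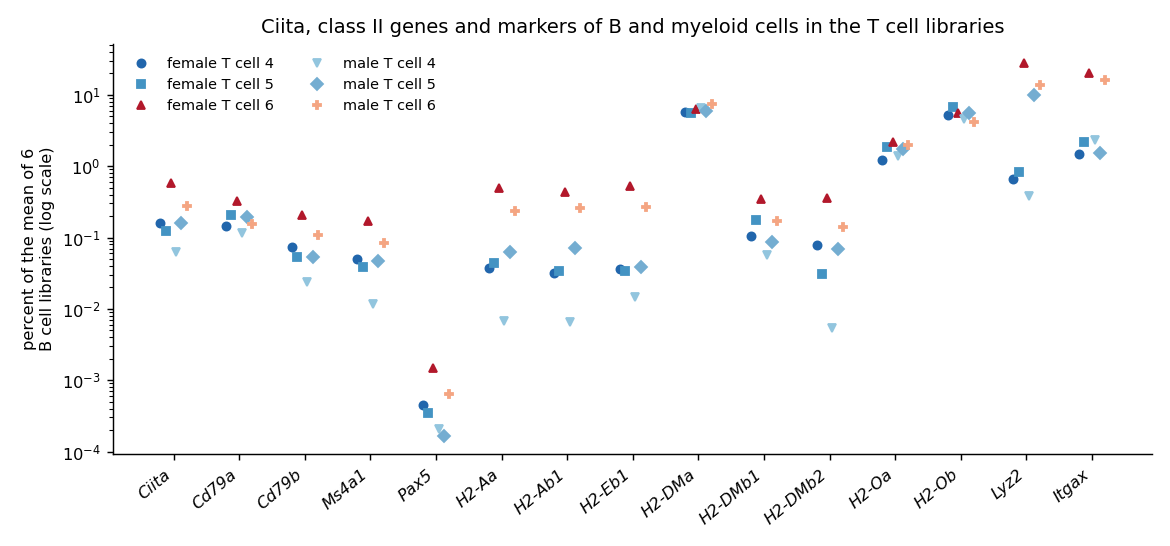
Level in each of the 6 T cell libraries as a percentage of the mean of the 6 B cell libraries (log scale), with 1 symbol per library, for Ciita, 4 B cell markers, 8 class II pathway genes and the myeloid markers Lyz2 and Itgax. Female T cell 6 (red triangles) is highest for Ciita at 0.59%, whereas H2-DMa and H2-Ob lie between 4.13% and 7.37% in all libraries.

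Ratios of these genes within a library do not depend on the scaling between libraries, and 4 were compared by exact two-sided permutation tests over 6 against 6 libraries. The heavy chains shifted in balance. The ratio of H2-K1 to H2-D1 ran from 1.116 through 1.268 to 1.391 in B cells and from 1.408 through 1.598 to 1.808 in T cells. The libraries did not overlap, and the log2 difference of -0.33 had exact p = 0.00216, the smallest that this design can give (adjusted p = 0.00433 over the 4 ratios). With T cell libraries of the same number averaged, the exact p was 0.0238 (adjusted p = 0.0476), again the smallest possible, for this ratio and for that of Tap1 to Tap2. The transporter subunits shifted too. Tap1 exceeded Tap2 by 2.061 to 2.533 times in B cells (median 2.233) and by 1.527 to 1.791 times in T cells (median 1.627), again without overlap (log2 difference 0.47, exact p = 0.00216, adjusted p = 0.00433).

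Light chain transcripts were more abundant relative to the classical heavy chains in T cells. B2m over the sum of H2-K1 and H2-D1 ran from 0.826 through 0.882 to 1.029 in B cells and from 0.935 through 1.057 to 1.104 in T cells. The ranges overlapped because male B cell 1 stood above female T cell 6 and male T cell 5, and the log2 difference was -0.22 (exact p = 0.00649, adjusted p = 0.00866). This ratio did not pass with T cell libraries of the same number averaged (exact p = 0.0476, adjusted p = 0.0635). The ratio of Tapbp to Tap1 averaged 1.236 ± 0.12 over the B cell libraries and 1.113 ± 0.1 over those of T cells (SD, n = 6 each), a log2 difference of 0.15 that did not pass (exact permutation p = 0.0649), although it did when female B cell 2, female B cell 3, male B cell 1 or female T cell 5 was left out. Within 1 sex, 3 against 3 libraries cannot give an exact p below 0.1, and all 4 ratios kept their direction in females alone and in males alone.

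**Figure D3:**
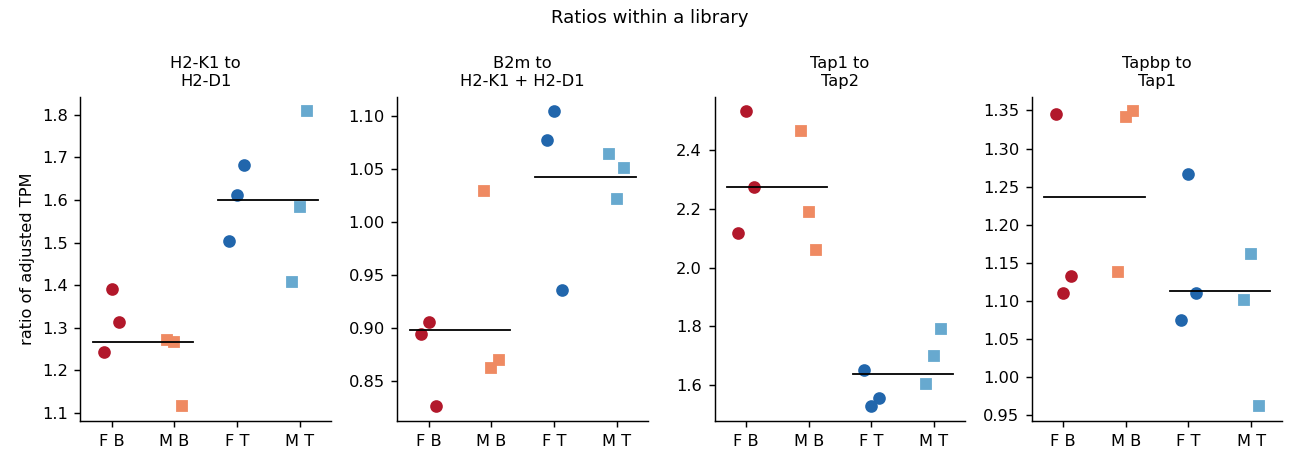
Ratios of adjusted TPM within each library for 4 pairs of genes, with 1 point per library, groups labelled F or M for females or males and B or T for the cell type, and a line at the mean of the 6 libraries of a cell type. The axes do not start at 0. H2-K1 to H2-D1 and Tap1 to Tap2 separate the B from the T cell libraries, and the other 2 ratios overlap.

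**Figure D4:**
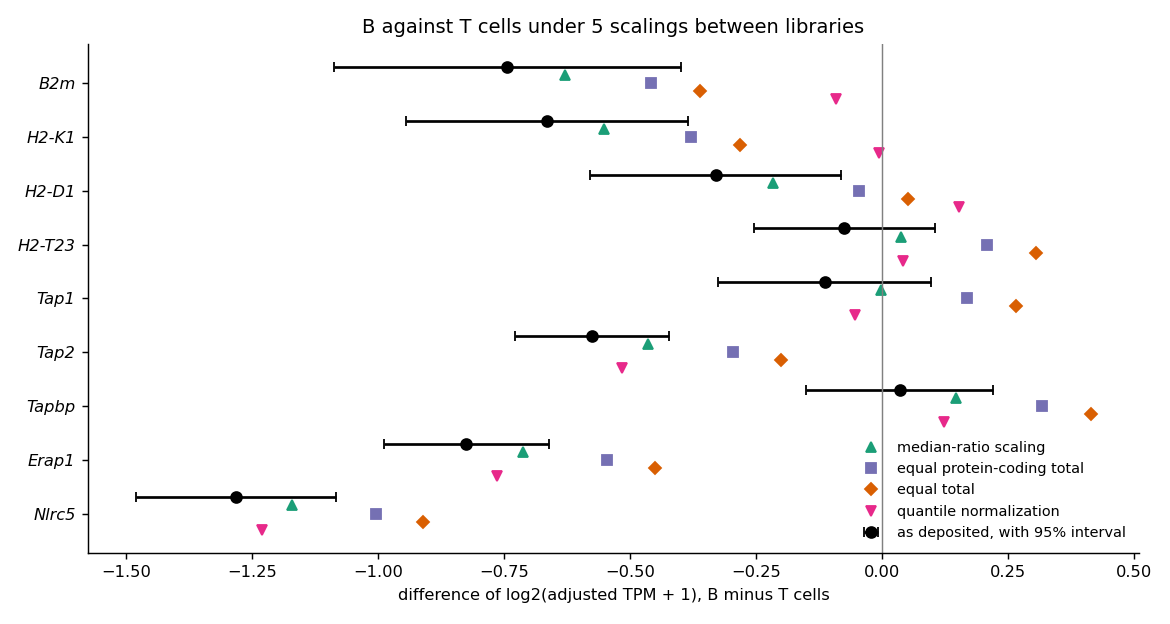
Difference between B and T cells in log2(adjusted TPM + 1) for 9 genes, with Ciita left out for its size. Black points with 95% intervals show the values as deposited and coloured symbols the same difference under 4 other scalings. Nlrc5, Erap1, Tap2, B2m and H2-K1 stay left of 0 under all 5, although H2-K1 comes to -0.0043 and B2m to -0.09 with quantile normalization, H2-D1 reaches 0.053 with equal totals and 0.15 with quantile normalization, and Tapbp reaches 0.42 with equal totals.

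The order of mean levels was largely shared between the cell types. B2m, H2-K1, H2-D1, H2-T23 and Tapbp filled the first 5 places in both. B2m was above H2-K1 in each of the 12 libraries, and their ranges were separate over the T cell libraries but overlapped over the B cell libraries. In B cells, Ciita (111.53 ± 6.51, SD, n = 6) ranked between Tapbp and Tap1, and its range overlapped with both. Nlrc5 was the lowest of the 10 in B cells (30.5 ± 4.43, SD, n = 6) and overlapped with Erap1 just above it. In T cells Nlrc5 (75.3 ± 7.69, SD, n = 6) stood next to Erap1 (72.0 ± 6.59, SD, n = 6) and was above it in 3 of the 6 libraries, so these neighbours did not differ beyond their spread. Tap2 followed at 66.1 ± 6.43 (SD, n = 6), and Ciita was last.

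Most of the 10 genes tended to be high or low in the same libraries. Among the 6 B cell libraries, female B cell 2 was highest for 9 of the 10 genes, all but Erap1, although it was highest for 18.1% of all tested genes. Male B cell 3 was lowest for 5 genes (13.8% of all tested genes). Among T cell libraries, female T cell 4 was highest for 8 genes (20.2% of all tested genes), and female T cell 6 was lowest for 7 (27.4%). Nlrc5 did not follow this in T cells, where it was highest in male T cell 5 and second highest in female T cell 6. Neither did Ciita at its low T cell levels, which was highest in female T cell 6 and lowest in male T cell 4.

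The sexes were compared separately in B and in T cells, and none of the 10 genes passed in either. Over all tested genes limma passed 0.144% between the B cell groups (18 genes, with 373 at an unadjusted p under 0.05). Between the T cell groups it passed 0.104% (13 genes, with 319 at an unadjusted p under 0.05). Differences of the 10 genes ran from -0.06 to 0.23 in B cells (log2, female minus male) and from -0.07 to 0.14 in T cells, each with an adjusted p of 1. The largest was that of Nlrc5 in B cells, at 32.9 ± 3.71 in females and 28.1 ± 4.2 in males (SD, n = 3 each), or 0.23 ± 0.13 (log2, SE, unadjusted p = 0.1). The female and male B cell values of Nlrc5 overlapped. Taken over all 10 genes, the 95% intervals reached from -0.45 to 0.55 in B cells and from -0.54 to 0.43 in T cells. In B cells the widest was that of B2m (-0.45 to 0.52) and the narrowest that of Tap2 (-0.16 to 0.27). Sex differences inside the interval of a gene were not excluded for that gene. A test of whether the sex difference itself differed between the cell types passed for 0.0% of tested genes in limma, with 295 at an unadjusted p under 0.05, and for the 10 genes it ran from -0.20 to 0.19. None of the 10 genes passed that test under any alternative run. In each of these sex comparisons, the genes at an unadjusted p under 0.05 in limma made up less than a share of 0.05 of the 12520 tested. That share would be expected without any sex difference if the libraries were independent. However, T cell libraries of the same number deviated together, and these tests did not use that pairing. With the replicate block in limma, 483 genes were at an unadjusted p under 0.05 in B cells and 417 in T cells. The low shares therefore do not show that sex differences were absent.

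Steps before loading were examined in a list of 10 genes of peptide generation, of which 8 were higher and 2 lower in T cells (median -0.31 log2, B minus T), beside 41.6% of all tested genes higher and 31.4% lower in T cells and a median of -0.09. The largest differences were those of Psme2 (-0.83) and Psme1 (-0.63), which encode the PA28 cap of the proteasome, Tpp2 (-0.69), a cytosolic peptidase, Lnpep (-0.38), an endosomal aminopeptidase, and Psmb8 (-0.34 as deposited, 0.037 with equal totals), an immunoproteasome subunit. The count rested on the scaling. With equal totals 2 genes of the list were higher in B cells, 0 were higher in T cells, and the median was 0.07, where 38.4% of all tested genes passed with B above T, 15.9% with T above B, and the median was 0.25. The shares of all tested genes given here are the background for each list that follows. Chaperones of folding and loading were divided, with 4 of 10 above in B cells, 4 above in T cells and a median of 0.02. Erp29 (1.32) and Pdia6 (0.78) led those higher in B cells, and Tapbpl (-0.46), a tapasin relative that edits peptides, Pdia3 (-0.37), the thiol oxidoreductase of the loading complex, and Sec61a1 (-0.32) led those higher in T cells, although Pdia3 (0.0086) and Sec61a1 (0.061) changed sign with equal totals. With equal totals, 5 of the chaperones were higher in B cells and 0 in T cells.

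Other class I heavy chains also went both ways, with 4 of 11 tested (17 listed) above in B cells, 4 above in T cells and a median of 0.05. H2-Q6 (1.88) and Fcgrt (1.75), the neonatal Fc receptor, were higher in B cells, while H2-Q7 (-0.85), Mr1 (-0.85), which presents vitamin metabolites, and H2-T22 (-0.83) were higher in T cells. H2-Q6 and H2-Q7 shared 32.0% and 26.4% of their 50-base stretches with other genes and H2-T22 shared 34.5%, so their levels and opposite signs are uncertain. Under the other scalings, 5 genes of this list were higher in B cells and 3 or 4 in T cells.

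Among the DNA-binding partners of NLRC5 and CIITA, 2 of 8 were higher in B cells, 4 were higher in T cells and the median was -0.09, whereas with equal totals 3 were higher in B cells and 0 in T cells. Rfx5 had the largest difference, at 36.4 ± 2.26 in B cells and 9.22 ± 0.634 in T cells (SD, n = 6 each; 1.87 log2, adjusted p = 5.5e-12), the opposite direction to Nlrc5. Rfxap, of the same RFX complex, was lower in B cells (-0.59). Nfya was higher in B cells (0.60), while Nfyc (-0.24) and Atf1 (-0.29) were higher in T cells as deposited but had the opposite sign with equal totals (0.13 and 0.077), as Nfyc also did with equal protein-coding totals (0.035). Interferon and NF-kB factors that act at class I promoters were higher in B cells for 5 genes and in T cells for the remaining 3 (median 0.30). With equal totals 5 were higher in B cells and 1 in T cells (median 0.68), and with equal protein-coding totals 5 and 2 (median 0.58). Irf8 (6.01), Irf2 (1.34) and Stat2 (0.85) were higher in B cells, the opposite direction to Nlrc5, which is itself an interferon-induced gene. Irf1 (-0.76) was higher in T cells, the same direction as Nlrc5. A link between any of these factors and the level of Nlrc5 was not tested.

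**Figure D5:**
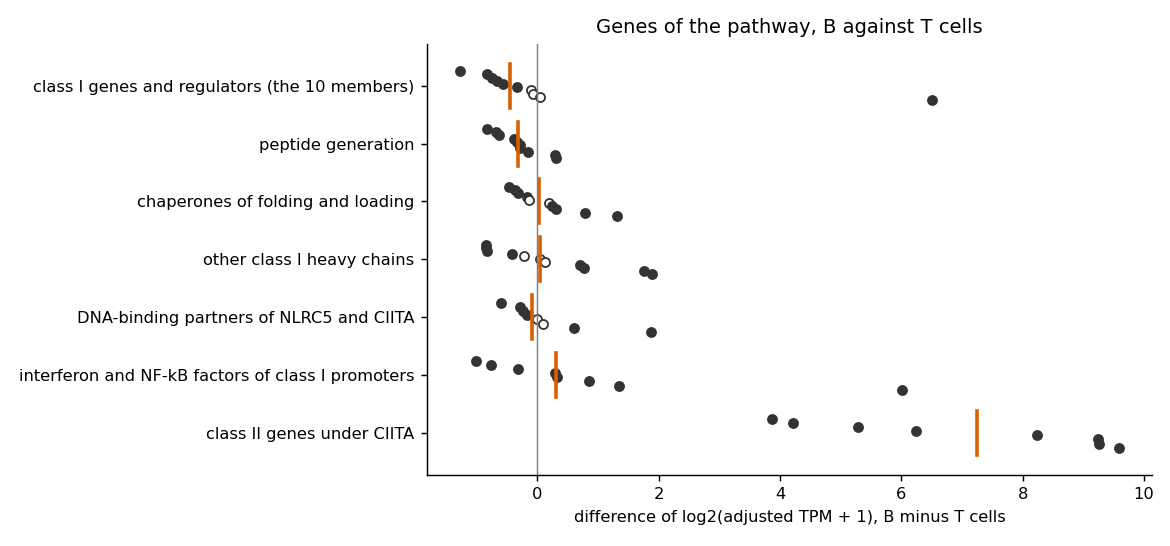
Difference between B and T cells in log2(adjusted TPM + 1) for the 10 genes and 6 lists of the pathway, with 1 point per gene, filled where the adjusted p was under 0.05 and open otherwise, and an orange line at the median of each list. The 8 class II genes lie between 3.87 and 9.59 with Ciita at 6.50, and the class I steps lie on both sides of 0.

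Genes with profiles most like those of the regulators were named by Pearson's r of log2(adjusted TPM + 1) over the 12 libraries, which share the 2 cell types, so that r chiefly follows the contrast between them. For Nlrc5 they were 2610020H08Rik (0.9843), Acad8, Yeats2, Slc17a9 and Ncapd3 (0.9827), whose mean levels were between 9.99 and 22.9 in T cells and between 2.04 and 7.16 in B cells. For Ciita they were Scd1 (0.9999), Lrrk2, Syk, Ms4a1 and March1, all with a mean of at most 0.518 in T cells. Tap1, which hardly differed between the cell types, was most like Snrpd1 (0.9291), Gm16490, Hist1h4d, Atp6v0e and Aph1a (0.8643).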

How the data were processed

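RNA-seq values of 12 libraries were used as deposited, in 1 table with 3 columns per library holding a point estimate with a lower and an upper bound. Per the file headers these signal values are adjusted TPM, which the authors had made by rescaling TPM between libraries. The submitters' processing notes name Trim Galore, FastQC, STAR and mm10; the quantification tool, the rescaling and the level of the bounds are not given in the sources used here. Per the labels, RNA of a fixed number of cells was depleted of ribosomal RNA, given ERCC spike-ins and made into stranded libraries, although the molecule field of the labels reads genomic DNA.

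Genes with an adjusted TPM of 1 or more in 3 or more libraries were tested on log2(adjusted TPM + 1) by limma 3.58.1 (R 4.3.3), with 4 group coefficients, a mean-variance trend and Benjamini-Hochberg adjustment over all genes tested, at a threshold of 0.05. B and T cells were compared with the sexes averaged, the sexes within each cell type, and the sex differences between cell types. The fits were tried on simulated data with independent noise and far fewer changed genes than differed between B and T cells here. That trial does not cover T cell libraries that deviate together. Ratios were compared in Python 3.11.15 with scipy 1.17.1. Counts and read depth are unknown, so the precision of each value rests on its bounds and on the spread of 3 libraries per group. Replicate numbers paired female with male libraries in T cells (correlations of deviations from group means 0.521 to 0.721) but not in B cells (-0.337 to -0.0382). The alternatives covered the pseudocount, the filter, 4 scalings, the trend, the replicate block, each cell type alone and each library left out; equal protein-coding totals, leaving out 3 libraries together and averaging T cell libraries of the same number were chosen after seeing the data. The genes and lists were chosen with earlier results of these data known. All 10 genes are described; from each list up to 5 genes with the largest differences are named, except 1 gene that is not reported here, and for Nlrc5, Ciita and Tap1 the 5 genes of highest correlation.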

Additional observations from a re-analysis of the deposited data

How the results depend on the processing

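As deposited and filtered, 9134 genes passed between B and T cells and 18, 13 and 0 for the sexes in B cells, in T cells and their difference. Without a filter on low values, 24591 genes passed between B and T cells, and 10985 and 10607 between the sexes in B and T cells and 11201 in the difference between the sex effects. Of the 10 genes, 3 passed between B and T cells with equal totals and 4 with quantile normalization, and H2-D1 changed sign under both (0.053 and 0.15). Equal totals gave 36, 23 and 16 genes for the sexes in B cells, in T cells and their difference. With a pseudocount of 0.1, 24 genes passed for the sexes in T cells and 1 for the difference. With a minimum of 5, 7 passed in T cells, and with each cell type alone 5 passed in B cells. Leaving out female B cell 1, female T cell 6 and male T cell 6 together gave 11, 7 and 2 genes. For the difference, quantile normalization and equal protein-coding totals gave 1 gene each and a fit without trend 3, and leaving out each library gave 0 to 3, the 3 without female T cell 6. The cause of these changes was not tested.

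Within females and males alone, where 3 against 3 libraries cannot pass, the log2 ratios were -0.28 and -0.39 for H2-K1 to H2-D1, -0.24 and -0.19 for B2m to both heavy chains, and 0.55 and 0.40 for Tap1 to Tap2. With T cell libraries of the same number averaged, B2m to both heavy chains was -0.22 and no longer passed. Tapbp to Tap1 ran from 0.11 to 0.19 with each library left out. Of the other values of single genes between B and T cells, 206 kept their call, 11 lost it and 1 gained it.

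B and T cells share no replicate number, so no block could be fitted between them. With the replicate block, 14 genes passed between the sexes in B cells, 10 in T cells and 0 in the difference, and no call of the 10 genes changed. Read depth is unknown, which limits what can be said of low levels such as Ciita in T cells.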
